A study of Mus musculus with 6 samples.

Results

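The 8 genes described here, *Tigit*, *Cd96*, *Lag3*, *Havcr2*, *Pdcd1*, *Cd160*, *Lair1* and *Ctla4*, code for inhibitory and checkpoint receptors of lymphocytes. They were taken by name from the 25690 gene symbols of the tables, and all 8 had enough counts to be tested. Their levels were measured by RNA-seq in CD27SP NK cells, the immature NK1.1+CD27+CD11b-CD3/19- subset sorted from mouse bone marrow (BM). The 3 *Ncr1cre Myc* wt/wt libraries and the 3 *Ncr1cre Myc* fl/fl libraries, here called Myc wt/wt and Myc fl/fl, carry the replicate numbers 1, 2 and 4 in each genotype. Both genotypes carry the Cre recombinase under the control of *Ncr1*, the gene of the NK cell receptor NKp46, and the floxed *Myc* alleles are deleted only once a cell has switched it on. The mice were matched for age and sex and backcrossed on C57BL/6. Whether a library came from 1 mouse or from pooled mice is not given in the sources used here, so p-values measure the spread between these libraries. Where 3 values of a genotype are given, they stand in the order of replicates 1, 2 and 4.

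Checkpoint receptors sit on the surface of NK cells and T cells, and many of them lower the activity of these cells on meeting a ligand on another cell. Many of them carry tyrosine motifs in their cytoplasmic tail that recruit the phosphatases coded by *Ptpn6*, *Ptpn11* and *Inpp5d*, which oppose signals from activating receptors. *Tigit* and *Cd96* code for receptors that share the ligand Pvr with the activating receptor Cd226, so the 3 are read as a balance. On NK cells some of these receptors are known as marks of maturation or as brakes that can be raised after activation.

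Promoter windows from RefSeq (GRCm38.p6), reaching from 250 bases before to 50 bases after a start site, were found for 7 of the 8 genes, all but *Lag3*. Those of *Tigit*, *Lair1* and *Cd160* are shown because *Tigit* was the gene that passed the threshold, *Lair1* was the gene that was lower in every Myc fl/fl library, and *Cd160* had the highest level and a pair of start sites. The windows were searched on both strands for 2 sequences bound by Myc (CACGTG and CACGCG), a T-box core (TCACACC), a Runx core (TGTGGT), an AP-1 site (TGANTCA) and the site of Nr4a receptors (AAAGGTCA). Matches are in capitals, and no match overlapped another. The windows lie at chr16:43664135-43664434, chr7:4063155-4063454 and chr3:96814472-96814771, each on the minus strand and written 5′ to 3′.
Tigit: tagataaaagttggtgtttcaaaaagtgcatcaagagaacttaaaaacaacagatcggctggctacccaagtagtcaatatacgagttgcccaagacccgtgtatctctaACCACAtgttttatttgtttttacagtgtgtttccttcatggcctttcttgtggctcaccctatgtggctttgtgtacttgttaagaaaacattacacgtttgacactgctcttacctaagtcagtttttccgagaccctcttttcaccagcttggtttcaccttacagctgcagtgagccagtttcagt
Lair1: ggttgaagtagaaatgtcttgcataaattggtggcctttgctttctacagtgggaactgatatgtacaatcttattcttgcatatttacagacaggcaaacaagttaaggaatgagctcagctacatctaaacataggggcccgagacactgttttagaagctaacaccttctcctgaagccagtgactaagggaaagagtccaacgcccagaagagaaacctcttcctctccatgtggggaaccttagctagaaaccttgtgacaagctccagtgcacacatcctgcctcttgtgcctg
Cd160: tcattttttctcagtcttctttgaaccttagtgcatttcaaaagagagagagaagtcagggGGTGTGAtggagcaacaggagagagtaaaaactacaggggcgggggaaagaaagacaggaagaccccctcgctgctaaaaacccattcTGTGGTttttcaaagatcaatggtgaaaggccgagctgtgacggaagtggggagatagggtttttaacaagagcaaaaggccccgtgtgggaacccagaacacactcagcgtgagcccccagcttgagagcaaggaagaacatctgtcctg
Neither sequence bound by Myc was in any of the 8 windows of these genes, whereas 7.15% and 9.27% of the 32851 windows of all genes held them. The Runx core was in 5 of the 8 windows, those of *Tigit*, *Cd96*, *Havcr2* and both starts of *Cd160*, against 16.8% of all windows. The T-box core was in the *Cd160* window shown (3.98% of all windows) and the AP-1 site in that of *Havcr2* (7.81%), while the Nr4a site was in none (1.51%). A match describes the letters and not binding, and an absent match says only that the letters are not in that window.

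The libraries held between 54550907 and 64962491 estimated counts, except Myc wt/wt library 1, which held 8101219 and therefore gives the least precise values for weakly expressed genes. *Myc*, in CPM (counts relative to the TMM-scaled library size), was at 200.5, 183.4 and 164.3 in Myc wt/wt and at 61.5, 64.6 and 76.5 in Myc fl/fl libraries, and each library is on the side its label gives. Of 15474 genes tested with edgeR's quasi-likelihood test, 0.872% were lower and 1.28% were higher in Myc fl/fl cells at an adjusted p below 0.01 and a log2 fold change of at least 0.5 in size. Myc fl/fl library 4 and the shallow Myc wt/wt library 1 stood apart. Of 9780 genes with a mean of at least 5 CPM, 19 had at least 3 times the level of every other library in Myc fl/fl library 4 and 12 in Myc wt/wt library 1, against 0 in each of the others, while 3 and 45 were at least 3 times lower than in every other library, against 0 to 6 in the others. *Lag3*, *Havcr2*, *Pdcd1* and *Ctla4* all had more than 3 times the level of the next highest library in Myc fl/fl library 4, so their values are given without replicate 4 of both genotypes and without that library alone, the latter in a fit with no replicate block.

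In TPM, which is per transcript length and lets genes be compared, the means of the 8 genes spanned more than 3 orders of magnitude in Myc wt/wt cells. In Myc fl/fl cells they ran from 370.3 TPM for *Cd160* to 0.610 TPM for *Havcr2*, a narrower span. In Myc wt/wt cells, *Cd160* had 351.8 ± 39.6 TPM (SD, n = 3) and lay above 98.2% of all symbols. It was followed by *Cd96* with 107.8 ± 17.4 TPM, *Tigit* with 49.5 ± 8.23 TPM and *Lair1* with 38.8 ± 5.29 TPM (SD, n = 3 each). The other four were weak, with *Lag3* at 3.53 ± 1.28 TPM, *Pdcd1* at 0.718 ± 0.409, *Ctla4* at 0.705 ± 0.375 and *Havcr2* at 0.211 ± 0.131 (SD, n = 3 each). Neighbours in this order were separated in every library except *Tigit* and *Lair1*, and *Pdcd1* and *Ctla4*, whose ranges overlapped. In Myc fl/fl cells the first 5 kept their order, with *Tigit* now clear of *Lair1*, at 97.6 ± 18.4 against 22.8 ± 3.35 TPM (SD, n = 3 each). *Lag3*, *Ctla4* and *Pdcd1* followed at 9.69 ± 9.05, 4.03 ± 5.44 and 3.69 ± 3.13 TPM (SD, n = 3 each), standard deviations about as large as the means, and *Havcr2* stayed last at 0.610 ± 0.553 TPM. The ranges of *Lair1* and *Lag3*, *Lag3* and *Ctla4*, and *Ctla4* and *Pdcd1* overlapped there.

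**Figure D1:**
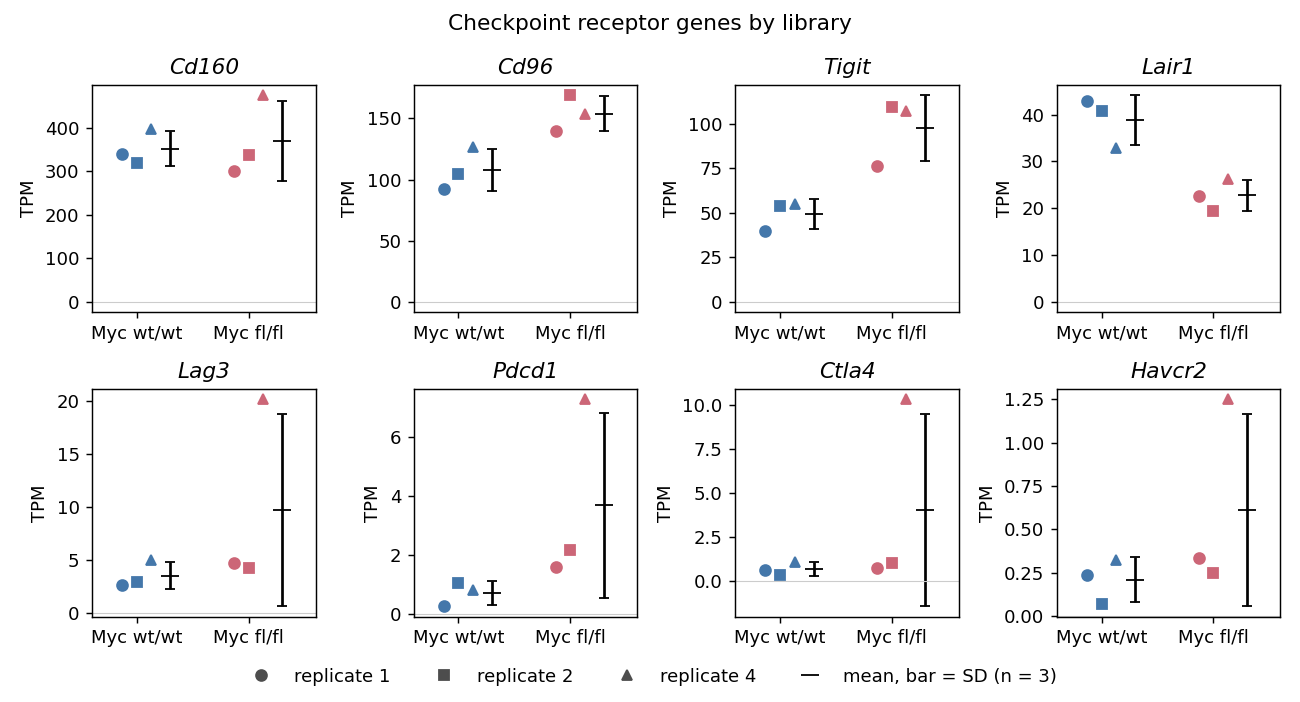
TPM of each receptor gene in each library, with blue for Myc wt/wt, red for Myc fl/fl, one symbol per replicate number, and a black bar for the mean and SD (n = 3); each panel has its own axis. Every red point lies above every blue point for *Cd96*, *Tigit* and *Pdcd1* and below for *Lair1*, while in the lower row the red triangle, Myc fl/fl library 4, lies far above the rest.

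*Tigit* (ENSMUSG00000071552.5, minus strand of chromosome 16 of GRCm38, 43648867 to 43664146), whose product is an inhibitory receptor for Pvr, rose in Myc fl/fl cells. Its values were 27.2, 32.7 and 34.3 CPM in Myc wt/wt and 43.8, 65.5 and 63.7 CPM in Myc fl/fl libraries. Each Myc fl/fl library was above each Myc wt/wt library, also without library 4. By edgeR the log2 fold change was 0.87 ± 0.15 (SE) at an adjusted p of 0.00878, a mean 1.84 times as high. In such bulk samples, more cells of a type cannot be told apart from more RNA per cell. The call lies close to the limit of 0.01 and was lost without the replicate block (adjusted p = 0.0154, edgeR), with replicate 1, 2 or 4 left out (0.0226, 0.0347 and 0.0378) and in limma-trend (0.0133), but DESeq2 kept it at 6.75e-06.

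*Cd96* (ENSMUSG00000022657.9, minus strand of chromosome 16, 46035657 to 46120251), which binds Pvr as well, had 161.0, 166.6 and 212.0 CPM in Myc wt/wt and 214.3, 270.1 and 241.9 CPM in Myc fl/fl libraries. The groups were separated by only a narrow gap, between Myc wt/wt library 4 and Myc fl/fl library 1. With a log2 fold change of 0.43 ± 0.15 (SE), it missed the threshold (adjusted p = 0.105, edgeR). *Cd226*, the activating receptor of the same ligand, had 165.5 ± 10.4 CPM in Myc wt/wt and 190.0 ± 31.0 CPM in Myc fl/fl cells (SD, n = 3 each) and missed it too, at a log2 fold change of 0.19 (adjusted p = 0.539, edgeR). Set over *Cd226* in the same library, the TPM of *Tigit* gave a ratio of 0.402, 0.594 and 0.564 in Myc wt/wt and of 0.645, 0.834 and 1.15 in Myc fl/fl libraries. This ratio was higher in each Myc fl/fl than in each Myc wt/wt library, whereas the ratio of *Cd96* to *Cd226*, 1.13 ± 0.190 against 1.37 ± 0.242 (SD, n = 3 each), overlapped between genotypes. *Pvr* itself, at 4.5 to 8.6 CPM over the 6 libraries, had a log2 fold change of -0.39 and missed the threshold (adjusted p = 0.383, edgeR).

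*Lair1* (ENSMUSG00000055541.17, minus strand of chromosome 7, 4003402 to 4063204) codes for an inhibitory receptor of collagens and went the other way. Its values were 63.5, 57.5 and 48.6 CPM in Myc wt/wt and 28.7, 25.5 and 35.04 CPM in Myc fl/fl libraries. The groups did not overlap, and Myc fl/fl cells had 0.526 times the Myc wt/wt mean. Its log2 fold change was -0.93 ± 0.18 (SE), and with an adjusted p of 0.0138 in edgeR it stood just outside the threshold. It passed without the replicate block (adjusted p = 0.00853, edgeR), without replicate 4 (log2 fold change -1.18, 0.00532) and in DESeq2 (0.000122), but not without replicate 1 (0.0720) or replicate 2 (0.0524). *Tigit* to *Lair1* in TPM was 0.931 to 1.67 in Myc wt/wt libraries and 3.38 to 5.60 in Myc fl/fl libraries.

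*Cd160* (ENSMUSG00000038304.14, minus strand of chromosome 3, 96798763 to 96829351), a lipid-anchored receptor of Tnfrsf14, did not differ beyond the spread. It had 290.2, 259.1 and 330.9 CPM in Myc wt/wt and 230.9, 272.4 and 378.1 CPM in Myc fl/fl libraries. Both the lowest and the highest value were from Myc fl/fl libraries. In edgeR its log2 fold change was -0.02 ± 0.15 (SE) at an adjusted p of 0.961, so values on either side of 0 lie within 1 SE. *Btla*, which shares the ligand, was weak at 2.1 to 6.4 CPM.

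*Cd160* and *Lair1* are the genes with several transcripts and enough counts to divide among them. The transcript Cd160-201, which starts at the window shown above, took 86.1%, 78.8% and 80.1% of the *Cd160* counts in Myc wt/wt and 79.4%, 78.5% and 78.8% in Myc fl/fl libraries. The transcript with the largest share was the same in all 6 libraries. Cd160-203, which starts at the other site further upstream, took 11.6 ± 1.99% in Myc wt/wt and 14.4 ± 0.796% in Myc fl/fl cells (SD, n = 3 each). Its share was higher in each Myc fl/fl library (two-sided exact permutation p = 0.10, the smallest value this test can give for 3 libraries against 3). Cd160-202 had 0.324% in Myc wt/wt library 1 against 9.66% and 10.3% in libraries 2 and 4, so its spread rests on the shallow library. For *Lair1*, Lair1-203 led in estimated counts with 54.6 ± 4.17% in Myc wt/wt and 53.2 ± 3.69% in Myc fl/fl cells (SD, n = 3 each; two-sided exact permutation p = 0.70), and the shares of the 4 transcripts tested overlapped between genotypes (p from 0.4 to 1.0). In TPM, which divides by length, the shorter Lair1-210 had a larger share than Lair1-203 in Myc fl/fl libraries 2 (40.6% against 33.9%) and 4 (40.2% against 39.1%). Shares depend on how the quantifier divided reads between transcripts that share exons.

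**Figure D2:**
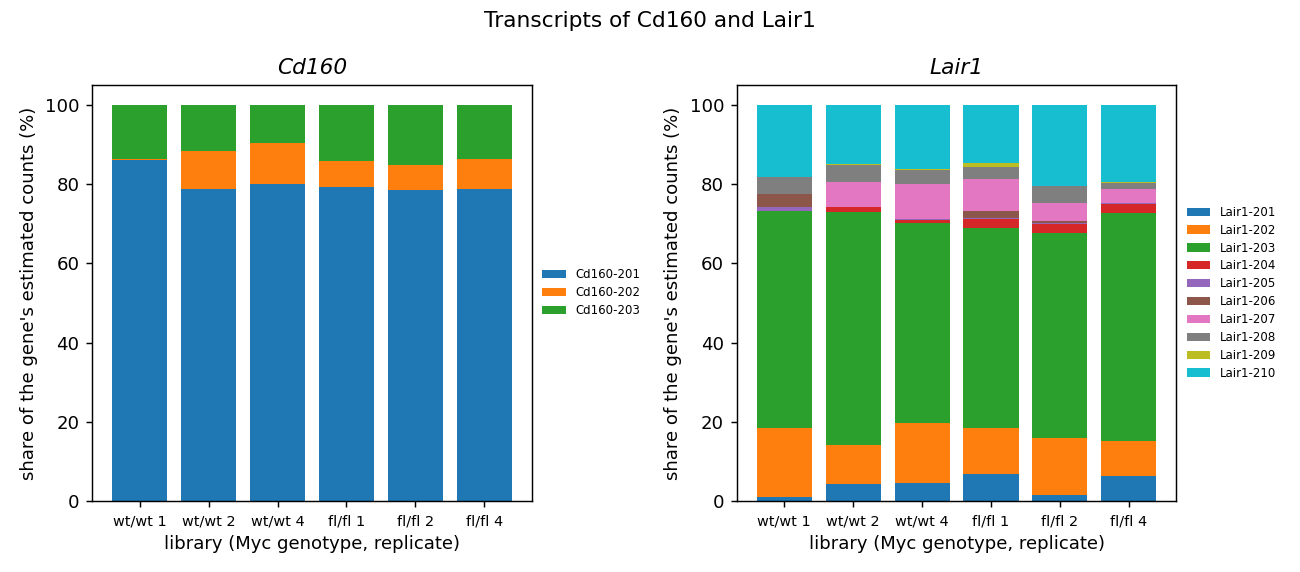
Share of the estimated counts of *Cd160* (left) and *Lair1* (right) given to each transcript, in percent, 1 bar per library. Cd160-201 holds 78.5% to 86.1% of *Cd160* and Lair1-203 holds 50.4% to 58.8% of *Lair1* in all 6 libraries.

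*Pdcd1* (ENSMUSG00000026285.7, minus strand of chromosome 1, 94038305 to 94052553) codes for PD-1, the receptor of Cd274 and Pdcd1lg2. Its values were 0.390, 1.36 and 1.05 CPM in Myc wt/wt and 1.92, 2.73 and 9.01 CPM in Myc fl/fl libraries. Each Myc fl/fl library was above each Myc wt/wt library, with library 4 at 3.31 times the next highest. A log2 fold change of 2.10 ± 0.47 (SE) missed the threshold at an adjusted p of 0.0267 in edgeR and passed in DESeq2 (0.000920). The shallow Myc wt/wt library rests on 3 counts, 0.370 CPM of its total before scaling, with an exact 95% binomial interval, which covers counting error only, from 0.0764 to 1.08. Without replicate 4 the log2 fold change was 1.42 (adjusted p = 0.216, edgeR). Without Myc fl/fl library 4 alone it was 1.17 (adjusted p = 0.179), beside 2.12 with all libraries and no block, and Myc fl/fl libraries 1 and 2 alone had 2.48 times the Myc wt/wt mean.

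*Lag3* (ENSMUSG00000030124.2, minus strand of chromosome 6, 124904361 to 124911705), a CD4-related receptor of MHC class II, had 3.64, 3.49 and 5.47 CPM in Myc wt/wt and 5.33, 4.83 and 22.1 CPM in Myc fl/fl libraries. Only Myc fl/fl library 4 lay outside the range of the Myc wt/wt libraries. Its fitted log2 fold change was 1.05 ± 0.34 (SE) at an adjusted p of 0.0935 in edgeR, and 0.49 without replicate 4 (adjusted p = 0.616, edgeR). It was 0.26 without Myc fl/fl library 4 alone (adjusted p = 0.694, edgeR), beside 1.34 with all libraries and no block.

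*Ctla4* (ENSMUSG00000026011.13, plus strand of chromosome 1, 60887000 to 60915832), whose product competes with Cd28 for Cd80 and Cd86, had 1.04, 0.496 and 1.66 CPM in Myc wt/wt and 0.868, 1.52 and 14.0 CPM in Myc fl/fl libraries. Library 4 was at 8.41 times the next highest, while Myc fl/fl libraries 1 and 2 lay within the Myc wt/wt range. Its fitted log2 fold change was 1.79 ± 0.56 (SE) at an adjusted p of 0.0860 in edgeR, and 0.77 without replicate 4 (adjusted p = 0.689, edgeR). Leaving out Myc fl/fl library 4 alone gave 0.16 (adjusted p = 0.924, edgeR), beside 2.34 with all libraries and no block. *Cd28* had between 110.6 and 228.0 CPM and was highest in the same library.

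*Havcr2* (ENSMUSG00000020399.14, plus strand of chromosome 11, 46454935 to 46481255), which codes for TIM-3, was the weakest of the 8 genes. It had 0.520, 0.124 and 0.672 CPM in Myc wt/wt and 0.664, 0.512 and 2.53 CPM in Myc fl/fl libraries, from 4 to 151 counts. Again Myc fl/fl library 4 was alone outside the Myc wt/wt range. Its fitted log2 fold change was 1.58 ± 0.53 (SE) at an adjusted p of 0.105 in edgeR, and 1.25 without replicate 4 (adjusted p = 0.577, edgeR). With Myc fl/fl library 4 alone left out it was 0.48 (adjusted p = 0.781, edgeR), beside 1.55 with all libraries and no block.

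Counted together, 1 of the 8 genes was higher and 0 were lower past the threshold in edgeR, against 1.28% and 0.872% of all tested genes (2.15% either way). The study itself took the largest adjusted p of edgeR, DESeq2 and limma-trend. By that rule 0 of the 8 genes were higher and 0 lower, against 144 and 78 of all 15474 genes. At an adjusted p below 0.05, *Tigit* and *Pdcd1* were higher and *Lair1* was lower, where 4.45% of all genes were higher and 3.38% lower (7.83% either way). At an unadjusted p below 0.05, 6 were higher and 1 was lower, against 12.4% and 10.2%. Of the 6, *Tigit*, *Cd96* and *Pdcd1* stayed below 0.05 without replicate 4 and without Myc fl/fl library 4 alone, and *Lag3*, *Ctla4* and *Havcr2* did not. *Cd96* was above it without replicate 2 (unadjusted p = 0.111, edgeR) and, with no block, without library 2 of either genotype (0.0504 and 0.0573). DESeq2 at the stricter threshold called *Tigit*, *Pdcd1* and *Lair1*, and it called 4.16% of all genes higher and 3.47% lower. The groups did not overlap for 4 of the 8 genes, 3 above and 1 below, against 16.2% and 15.1% of all genes (31.3% in either direction). The median log2 fold change of the 8 was 0.96, beside 0.01 over all tested genes. Without the block it was 1.10, and it dropped to 0.35 once Myc fl/fl library 4 was left out as well. A self-test with simulated counts recovered 38.5% of genes planted at a log2 fold change of 1 with 3 libraries a genotype, so a gene that missed the threshold is not shown to be unchanged.

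**Figure D3:**
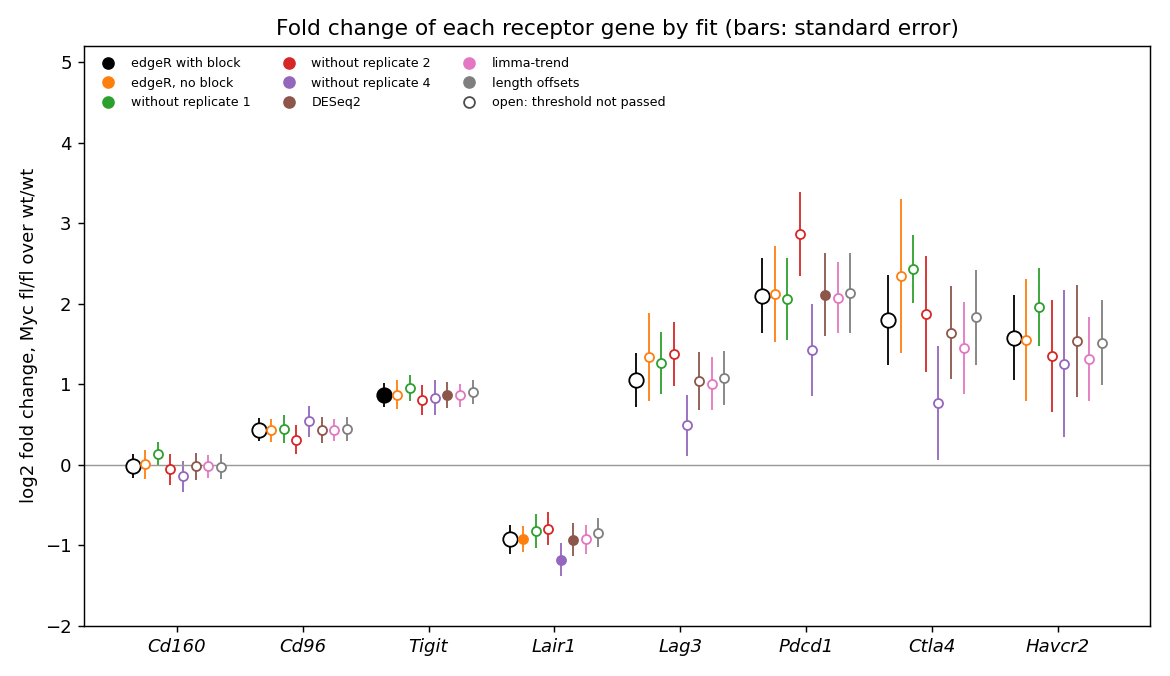
Log2 fold change (Myc fl/fl over Myc wt/wt) of each gene with its standard error in 8 fits, filled where the gene passed the threshold of that fit. *Tigit* stays between 0.80 and 0.95 and *Lair1* between -1.18 and -0.79 in the fits shown, while *Lag3*, *Pdcd1*, *Ctla4* and *Havcr2* are lowest without replicate 4.

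Of 80 related genes listed by role, 77 were tested, and 3 were higher and 0 lower past the threshold, against 1.28% and 0.872% of all genes. Each of the 3 had a different role. With replicate 1, 2 or 4 left out, 1, 2 and 3 of the 77 related genes were higher past the threshold. Of all genes tested in those fits, 49 of 15723, 88 of 15674 and 162 of 15505 were higher. Among the ligands, *Cd274*, which codes for PD-L1, had 30.8, 33.4 and 34.0 CPM in Myc wt/wt and 60.6, 58.6 and 61.6 CPM in Myc fl/fl libraries. Its groups were tight and far apart (log2 fold change 0.88, standard error 0.14, adjusted p = 0.00720, edgeR), and no other of the 17 ligands tested passed, *Pdcd1lg2* included. Among 15 other inhibitory receptors, *Lilrb4a*, an inhibitory receptor of the immunoglobulin superfamily, rose from 94.8 ± 12.9 to 234.9 ± 65.7 CPM (SD, n = 3 each; log2 fold change 1.28, adjusted p = 0.00227, edgeR). It was higher in each Myc fl/fl library, at 174.5, 225.4 and 304.9 CPM, and 13 of the 15 had a positive log2 fold change with a median of 0.61, beside 7962 of all 15474 genes tested with a median of 0.01. *Lilrb4a* has a close relative, *Lilrb4b*, with which reads can be shared.

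Among 14 transcription factors linked to checkpoint expression, *Nr4a1*, an immediate early nuclear receptor, had 36.4, 53.0 and 62.0 CPM in Myc wt/wt and 143.0, 125.4 and 389.8 CPM in Myc fl/fl libraries. It was higher in each Myc fl/fl library and highest in library 4 (log2 fold change 1.96, standard error 0.24, adjusted p = 0.00287, edgeR). *Tox* had a log2 fold change of 0.51 (adjusted p = 0.0426, edgeR), and *Eomes* and *Tbx21*, the T-box factors of NK cells, had 0.04 and -0.05. None of 8 activating partners, 17 signalling genes or 6 genes of shedding and trafficking passed. The smallest adjusted p-values were those of *Slamf6* (log2 fold change -0.65, 0.0492) and *Slamf7* (0.40, 0.155) among the partners, and of the phosphatase gene *Inpp5d* (0.48, 0.0599) and the adaptor gene *Sh2d1b2* (0.63, 0.115) in signalling, all in edgeR. In the shedding and trafficking list they were those of *Lrba*, which protects Ctla4 from degradation (0.62, 0.0860), and *Cmtm6* (0.37, 0.128). *Ptpn6* and *Ptpn11*, the phosphatases of the receptor tails, had log2 fold changes of 0.16 and -0.29 and did not pass (adjusted p = 0.537 and 0.277, edgeR). The medians of the 3 lists were 0.07, 0.09 and 0.25.

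**Figure D4:**
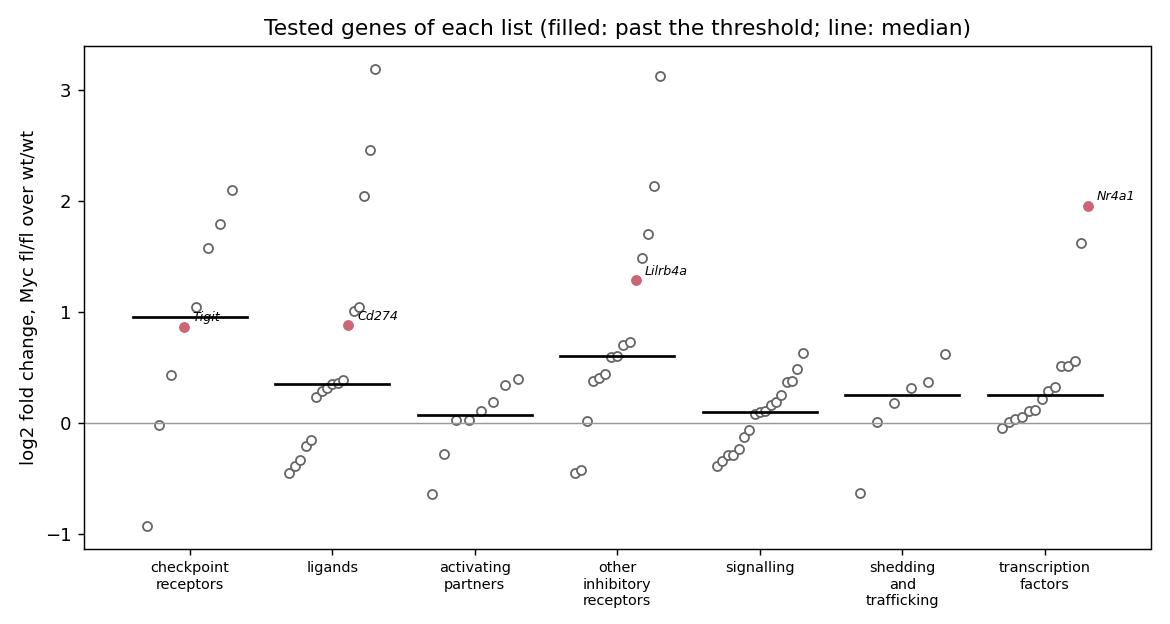
Log2 fold change (Myc fl/fl over Myc wt/wt) of every tested gene of each list, filled where past the threshold, with a line at the list's median. *Tigit*, *Cd274*, *Lilrb4a* and *Nr4a1* are the filled points, and the medians run from 0.07 for activating partners to 0.96 for the checkpoint receptors.

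All libraries expressed the genes that define NK cells, with *Tyrobp* and *Gzma* at the highest mean TPM of that list over the 6 libraries, and its 10 genes summed to 12860 to 13220 CPM in Myc wt/wt and 14210 to 14870 CPM in Myc fl/fl libraries. Of the 10, 2 were higher in each Myc fl/fl library, *Il2rb* (3041 against 4193 mean CPM) and *Prf1* (498.3 to 689.5 against 846.4 to 1988 CPM). In each Myc fl/fl library 1 was lower, *Gzma* (1709 against 1103 mean CPM), and none of the 10 passed the threshold. Of all tested genes, 16.2% were higher and 15.1% lower in each Myc fl/fl library. The summed markers of several other BM cell types were higher in each Myc fl/fl library. The 8 basophil and mast cell markers, led by *Prss34* and *Mcpt8*, summed to 14.8 to 18.4 CPM in Myc wt/wt and 274.4, 329.6 and 120.4 CPM in Myc fl/fl libraries, and all 8 were higher in each Myc fl/fl library, against 16.2% of all genes. The lists of granulocyte-monocyte progenitors (*Mpo*, *Elane*; 82.4 to 125.4 against 521.9 to 878.0 CPM), dendritic cells (*Itgax*, *Bst2*; 196.7 to 207.3 against 340.8 to 408.3 CPM) and monocytes (*Ccr2*, *Ly6c2*; 1659 to 1865 against 2086 to 2370 CPM) did not overlap either. Nor did those of B cells (*Cd79b*, *Vpreb3*; 4.55 to 8.64 against 11.9 to 15.7 CPM), erythroid cells (*Hbb-bs*, *Hba-a1*; at most 175.8 against at least 340.2 CPM) and platelets (*Pf4*, *Ppbp*; 8.31 to 14.2 against 20.2 to 64.3 CPM). The same held for single markers in 5 of 5 of the progenitor list, 6 of 6 of the erythroid, 5 of 7 of the monocyte, 4 of 8 of the dendritic cell, 3 of 5 of the platelet and 2 of 7 of the B cell list. The dendritic cell sum was mostly *Itgax*, while *Bst2* overlapped between genotypes (log2 fold change 0.07). The monocyte sum was mostly *Ccr2*, which overlapped as well (1417 to 1724 against 1670 to 2019 CPM, log2 fold change 0.25). *Vpreb3* and *Ppbp*, named for B cells and platelets, also overlapped between genotypes. The monocyte marker *Fcgr1* was at 0 in every Myc wt/wt library. The part of these cells in the levels of *Tigit*, *Lair1*, *Pdcd1*, *Cd274*, *Lilrb4a* and *Nr4a1* was not tested.

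T cells also carry most of these receptors, and the sort was gated to leave out cells with CD3 on their surface. The 8 T cell markers, led in TPM by *Cd3g* and *Cd3d*, summed to 258.0, 264.8 and 515.0 CPM in Myc wt/wt and to 278.3, 344.7 and 372.5 CPM in Myc fl/fl libraries, so the sums overlapped. Of the 8, *Trac* (41.6 CPM), *Cd6* (13.4 CPM), *Cd8b1* (0.653 CPM) and *Cd4* (0.553 CPM) had their highest level in Myc fl/fl library 4. *Cd6* stood out most, at no more than 5.82 CPM in any other library, while *Trac* was higher and *Cd3d* lower in each Myc fl/fl library. *Cd3d*, *Cd3e*, *Cd3g* and *Cd8a* were highest in Myc wt/wt library 4. The part of T cells in the levels of *Lag3*, *Havcr2*, *Pdcd1* and *Ctla4* was not tested. The lists of neutrophils (*S100a8*, *S100a9*; 3.77 to 15.7 against 13.6 to 29.3 CPM), ILC1s (*Cxcr6*, *Tmem176a*; 221.4 to 320.3 against 306.4 to 364.7 CPM) and mature NK cells (*Zeb2*, *Klrg1*; 136.4 to 212.4 against 135.2 to 143.6 CPM) overlapped between genotypes. Of the 6 mature NK cell markers, 2 fell past the threshold, against 0.872% of all tested genes, namely *Cma1*, a mast cell protease gene that mature NK cells also express (log2 fold change -1.84, adjusted p = 0.00253, edgeR), and *S1pr5*, the receptor with which NK cells leave the BM (-1.18, 0.00540), although its CPM overlapped between genotypes. *Cx3cr1* of the same list was higher in each Myc fl/fl library (3.62 to 6.33 against at most 2.67 CPM) without passing, and *Itgam* had a log2 fold change of 0.08. *Klrg1* had 23.52, 23.25 and 18.61 CPM in Myc wt/wt and 7.93, 7.85 and 37.1 CPM in Myc fl/fl libraries. Its values in Myc fl/fl libraries 1 and 2 lay below every Myc wt/wt library, and that in library 4 above them. It missed the threshold (log2 fold change -0.73, adjusted p = 0.389, edgeR). Of the lists that did not overlap, those of basophils, monocytes, erythroid cells and platelets had their lowest Myc fl/fl sum in library 4. Those of NK cells, progenitors, dendritic cells and B cells had their highest sum there. *Lag3*, *Havcr2*, *Pdcd1* and *Ctla4* were highest in the same library, and the part of all these cells in those 4 levels was not tested.

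**Figure D5:**
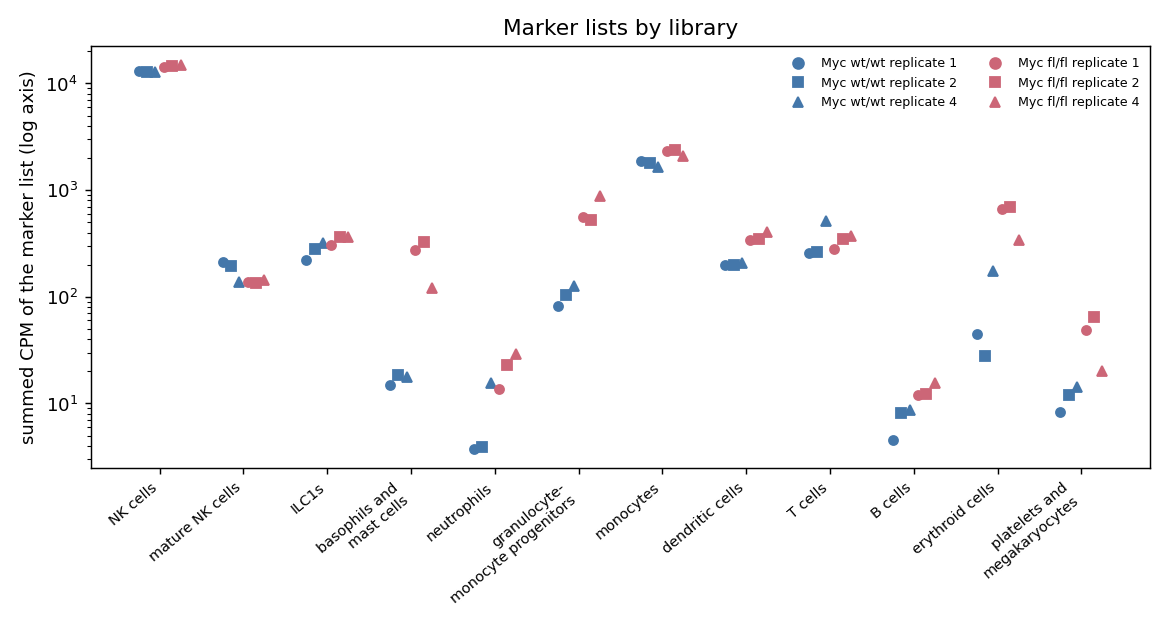
Summed CPM of each marker list in each library on a log axis, with blue for Myc wt/wt, red for Myc fl/fl and one symbol per replicate number. The basophil and mast cell list runs from 14.8 to 18.4 CPM in Myc wt/wt and from 120.4 to 329.6 CPM in Myc fl/fl libraries, while the T cell sums of both genotypes overlap.

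Across the 6 libraries, the genes whose log2(CPM + 1) followed *Tigit* most closely were *Ctsl* (Pearson r = 0.996), which codes for a lysosomal protease, and *Dpp4* (r = 0.990), which codes for a surface peptidase. *Ctsl* had 5.98, 7.25 and 7.65 CPM in Myc wt/wt and 9.55, 12.9 and 13.7 CPM in Myc fl/fl libraries. Among 9779 genes compared, 77 had an r above 0.95, and the points share their libraries and the difference between genotypes.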

How the data were processed

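RNA-seq libraries (SMART-Seq v4, single end, not stranded) of CD27SP NK cells were analysed, 3 per genotype. The authors deposited, per transcript, an estimated count, which is not normalized, and a TPM value. Their methods and the labels name Salmon and GRCh38, whereas the identifiers are of mouse and the columns those of kallisto. Estimated counts and TPM values were summed by symbol through GENCODE M21 (GRCm38), which matched 100239 of 100583 transcripts, and counts were rounded. Genes kept by filterByExpr (15474) were normalized by TMM and compared in R 4.3.3 with edgeR 4.0.16 (quasi-likelihood) and a block for the replicate number, since the study calls its analysis paired, with Benjamini-Hochberg adjustment over all tested genes. A standard error is the log2 fold change over the square root of F. DESeq2 1.42.0 and limma-trend 3.58.1 were alternatives. CPM values use TMM scaling.

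The 8 genes, the related genes and the marker lists were chosen with earlier results of these data known. The text names the 8 genes, the related genes past the threshold or otherwise the 2 of a list with the smallest adjusted p, others where a receptor's ligand, partner, phosphatase or factor is described, the pair of markers with the highest mean TPM in each list, markers that bear on a library that stands apart or passed the threshold (chosen after their values were seen), and the 2 genes most like a called member. No 2 libraries of a genotype agreed within sampling noise (chi-square over its degrees of freedom 36.5 to 91.9). Two-sided exact permutation tests compared transcript shares. Fits were tested on simulated data, where edgeR with the block called 4 unchanged genes and recovered 38.5% of the changed ones, against 12 and 61% in DESeq2. Only *Pdzk1* (mean 13.1 counts) overlaps a member, *Cd160*, among genes in the tables.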

Additional observations from a re-analysis of the deposited data

How the results depend on the processing

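Same-numbered libraries did not deviate together (correlations of -0.0121, -0.0198 and 0.0505 over 15474 genes, none above 0.1), so pairing by number was not seen in the data. Fits with a single library left out, which have no replicate block, were chosen after seeing the data. Of every change given here, the cause was not tested.

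Of *Tigit*, the log2 fold change was positive in all 18 alternatives, but it was no longer past the threshold without the replicate block (0.87), in limma-trend (0.86), by the largest adjusted p of the 3 methods (0.87), with library size only (0.88), with offsets from effective lengths (0.90), and with libraries left out (0.77 to 1.03). *Lair1* was negative in all 18 and passed without the replicate block (-0.92), in DESeq2 (-0.93), at an adjusted p below 0.05 (-0.93), with no filter on low counts (-0.92), and in 2 of the fits that left libraries out (-1.18 to -0.79). *Pdcd1* passed in DESeq2 (2.11), at an adjusted p below 0.05 (2.10) and with no filter (2.11), and ran from 1.17 to 2.86 with libraries left out. *Cd160* changed sign without the replicate block (0.0017), with at least 10 counts in every library (0.0055) and with libraries left out (-0.21 to 0.15). *Cd96* (0.31 to 0.56), *Lag3* (0.26 to 1.69), *Ctla4* (0.16 to 3.06) and *Havcr2* (0.48 to 2.51) stayed positive over the alternatives that tested them and passed in none; the lowest value of the last 3 came without Myc fl/fl library 4. The median over the 8 genes ran from 0.35, without that library, to 1.35, and was 0.46 over the 5 genes with at least 10 counts in every library. *Myc* ran from -1.62 to -1.30 with libraries left out, and without replicate 1 it missed the threshold (adjusted p = 0.0105, edgeR).

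The number of the 8 genes that were higher was 0 without the replicate block, in limma-trend, by the 3 methods, with library size only and with offsets, 2 in DESeq2, at 0.05 and with no filter, and 0 in each fit with libraries left out. The number lower was 1 without the block, in DESeq2, at 0.05 and with no filter, and 0 to 1 with libraries left out. Related genes higher were 8 in DESeq2, 10 at 0.05 (with 1 lower), 7 with no filter, 1 with library size only, 0 with offsets and 0 to 3 with libraries left out. Of all genes, 184 were lower and 203 higher without the replicate block, 537 and 643 in DESeq2, 78 and 144 in limma-trend and by the 3 methods, 523 and 689 at 0.05, 378 and 524 with no filter, 25 and 49 with library size only, 8 and 24 with offsets, and 6 to 130 and 19 to 162 with libraries left out.

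By TPM, *Pdcd1* and *Ctla4* ranked 6 and 7 of the 8 genes in Myc wt/wt and 7 and 6 in Myc fl/fl cells, and they changed places in Myc wt/wt cells in CPM per kb of effective length (7 and 6) and in both genotypes with a replicate left out (6 to 7 for each). The difference in share (Myc fl/fl minus Myc wt/wt, in percentage points) was 2.84 for Cd160-203 and 1.28 by TPM, and with a replicate left out it ran from 2.21 to 3.91 for Cd160-203, -5.97 to -0.531 for Lair1-202, -5.66 to 1.35 for Lair1-203, -3.35 to 3.26 for Lair1-207 and -0.0805 to 4.54 for Lair1-210. Depth limits *Havcr2*, *Pdcd1* and *Ctla4* in the shallow library, which held 4, 3 and 8 counts of them.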

Other observations

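Genes at a high level in Myc fl/fl library 4 alone were listed after the values of the receptors were seen, with no test. Of genes with a mean of at least 5 CPM, the widest margin was that of *Spp1*, which codes for osteopontin, with 16.2, 11.0 and 25.1 CPM in Myc wt/wt libraries 1, 2 and 4 and 71.5, 57.1 and 1611 CPM in Myc fl/fl libraries 1, 2 and 4. It was 22.5 times the next highest library. *Zbtb32*, a repressor of lymphocyte activation genes, was at 24.4 CPM there against at most 1.83 in the other libraries, *Atf3* at 126.4 against at most 15.4, and the granzyme gene *Gzmc* at 20.4 against at most 3.64. *Itga1*, which codes for CD49a and is in the ILC1 list, was at 65.6 CPM against 9.88 to 19.0 in the others, whereas *Tmem176a* of the same list was at 25.5 CPM there against 29.8 to 57.4, and the list's sum was 1.09 times that of Myc fl/fl libraries 1 and 2.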
